A study of Arabidopsis thaliana with 4 samples.

Results

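The genes described here are 9 Arabidopsis thaliana loci for GDSL lipases, among them LTL1 (AT3G04290) and CUS2 (AT5G33370). They are 9 of the 33602 genes in the count files and 9 of the 100 that carry a GDSL description or are LTL1. The loci were given as a list, and the list was chosen from earlier results on the same libraries. It therefore counts as selected on the read counts of the very comparison described below, so the members' differences are given as values with no p. The libraries are 2 of residuum cells (REC), which stay on the receptacle when a floral organ is shed, and 2 of secession cells (SEC), which leave with the organ. The plants of all 4 were ebp1 mutants of the Col-0 ecotype and carry a nuclear GFP-GUS reporter under the QRT2 promoter, and cells were sorted as protoplasts by that reporter's fluorescence. The mutation is named in the titles and in the series description but not in the genotype labels, which number the promoter differently in each sample. Plant age is not given in the labels, and no wild-type library is among the 4, so the values compare the sides of the break within the mutant. Whether the replicates are separate pools of plants is not said, so a p here measures the spread between these libraries, which may be technical.

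GDSL lipases are esterases and acyltransferases named for a short block near the start of the protein, which holds the serine that attacks the ester bond. Many are secreted to the cell wall. The best known plant role is in the cuticle: cutin synthase, studied first in tomato, moves hydroxy fatty acids from a glycerol carrier onto the growing cutin polyester outside the cell. CUS2 is a relative of that enzyme needed for the ridges of the cuticle on sepals, and LTL1 is another relative, first named for the lithium tolerance it gave to yeast. In wild-type flowers, residuum cells lay down a cuticle on the surface that organ loss exposes.

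All 9 genes carry the first 3 codons of the block, the only part searched for. The coding sequences around it are shown for the 4 members with the most reads and for both named relatives of cutin synthase. The sequences were read from the RefSeq genome of Arabidopsis, build TAIR10.1, by its own gene models, each 60 bases of coding strand from 5′ to 3′. Capitals mark 12 bases, the codons for glycine, aspartate and serine that open the block and the codon after them. That last codon is for valine in AT3G16370 and for leucine in the other sequences shown.
AT1G29670: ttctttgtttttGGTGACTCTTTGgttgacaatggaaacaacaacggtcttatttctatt
AT1G29660: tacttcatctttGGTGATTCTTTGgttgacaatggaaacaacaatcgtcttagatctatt
AT3G16370: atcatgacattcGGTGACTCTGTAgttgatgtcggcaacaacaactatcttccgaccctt
AT4G28780: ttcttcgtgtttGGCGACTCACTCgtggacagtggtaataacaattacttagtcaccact
LTL1: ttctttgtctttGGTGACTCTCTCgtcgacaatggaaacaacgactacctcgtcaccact
CUS2: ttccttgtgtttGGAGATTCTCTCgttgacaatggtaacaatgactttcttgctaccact
An in-frame match to those first 3 codons was found once in each of the 9 coding sequences. It lay at codon 34 to 39 in 7 members, at codon 53 in AT2G23540 and at codon 105 in AT1G29670, where the model used has 1296 coding bases against 1062 to 1164 in the others. AT1G33811 has 6 coding exons, and each of the others has 5. In TAIR10.1 AT1G29660 spans chr1:10371675-10374005 and AT1G29670 chr1:10375599-10377871. AT3G16370 spans chr3:5556710-5558982 and AT4G28780 chr4:14215473-14217909, also on the plus strand. LTL1 spans chr3:1133320-1136397 and CUS2 chr5:12602468-12604832, on the minus strand.

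The members fall into groups by coding sequence, a measure that does not use the read counts. Over 36 pairs, identity between coding sequences ran from 57.2% to 78.7% of aligned bases, with a median of 60.8%. The closest pair was AT1G29660 and AT1G29670, at 78.7%, which stand on the same strand of chromosome 1 with 1593 bases and 0 annotated genes between them. AT5G45670 was 69.9% and 69% identical to that pair. AT4G28780, LTL1 and CUS2 formed the other close group, at 67.2% to 70.5%. The longest run of bases shared without a mismatch by any pair of coding sequences was 26. Reads with more than one alignment were not counted in genes, and how reads of the tandem pair were split was not checked.

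**Figure D1:**
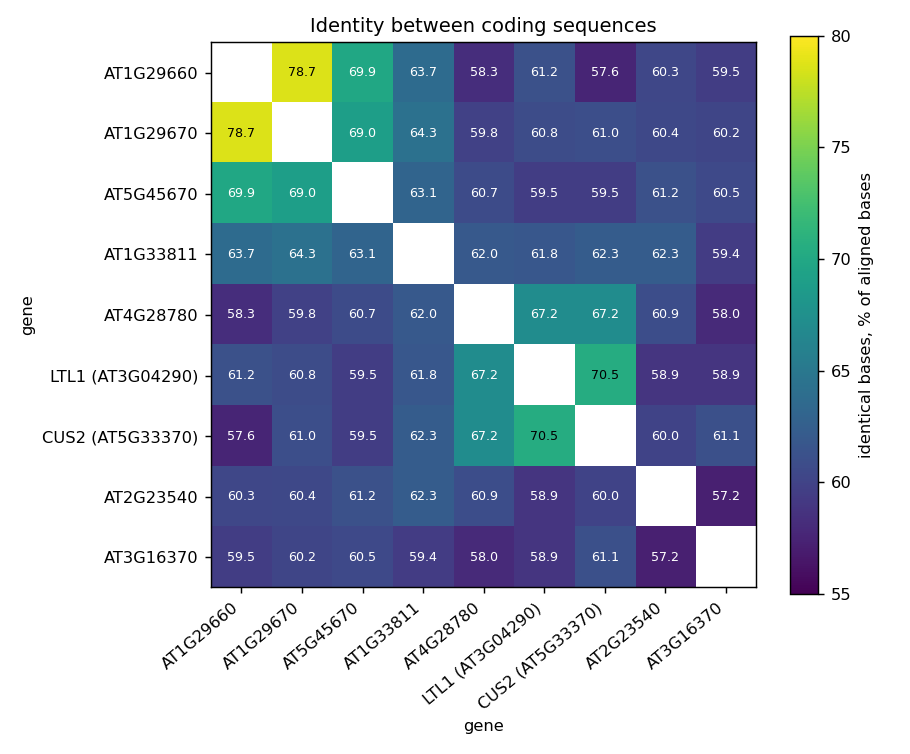
Identity between the coding sequences of the 9 genes, as the percentage of identical bases among aligned bases, with genes on both axes. AT1G29660 and AT1G29670 are the closest pair at 78.7%, and AT4G28780, LTL1 and CUS2 form a second block at 67.2% to 70.5%.

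Upstream sequence is shown for 3 members: for the tandem pair, which was read in every library, and for CUS2, which was not. Each run is the 250 bases before the annotated gene start in TAIR10.1, 5′ to 3′ along the gene. Capitals mark the L1 box, the element bound by homeobox factors of the epidermis. AT1G29660 is at chr1:10371425-10371674 on the plus strand, AT1G29670 at chr1:10375349-10375598 on the plus strand and CUS2 at chr5:12604833-12605082 on the minus strand.
AT1G29660: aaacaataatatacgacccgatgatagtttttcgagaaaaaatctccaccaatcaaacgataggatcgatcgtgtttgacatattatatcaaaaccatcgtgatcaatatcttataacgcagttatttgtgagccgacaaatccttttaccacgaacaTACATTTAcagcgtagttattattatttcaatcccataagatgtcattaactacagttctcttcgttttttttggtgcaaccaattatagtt
AT1G29670: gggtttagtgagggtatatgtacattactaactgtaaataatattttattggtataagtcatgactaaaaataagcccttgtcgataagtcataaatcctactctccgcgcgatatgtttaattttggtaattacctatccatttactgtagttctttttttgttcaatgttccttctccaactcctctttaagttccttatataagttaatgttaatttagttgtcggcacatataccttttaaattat
CUS2: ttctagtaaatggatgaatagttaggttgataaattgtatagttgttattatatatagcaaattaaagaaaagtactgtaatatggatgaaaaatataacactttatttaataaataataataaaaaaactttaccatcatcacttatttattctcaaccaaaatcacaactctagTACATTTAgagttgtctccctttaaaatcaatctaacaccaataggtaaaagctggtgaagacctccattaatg
The L1 box was searched on both strands as TAAATGCA and as TAAATGTA. It was found in 2 of the 9 windows, those of AT1G29660 and CUS2, each time as TAAATGTA on the other strand. Of 27443 upstream windows of protein-coding genes of the same length, 4.49% held either form. The G-box CACGTG and the GCC box GCCGCC were in none of the 9 windows, against 6.49% and 1.87% of all. The TATA box TATAAA was in 2 of 9, those of AT2G23540 and, on the other strand, AT3G16370, against 47.3% of all. The L1 box forms differ in 1 letter, so they cannot match at the same place, and some windows of the genome hold both; no match of the 9 windows overlapped another. A match describes the sequence and says nothing of binding.

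Counts in genes ran from 12191718 to 16102115 per library. At that depth the limit that a count of 0 allows, 3 counts, is 0.192 to 0.235 CPM, for counting error only. Levels are CPM, counts scaled to a common depth on library sizes scaled by the TMM method, and mean ± SD is over n = 2 libraries. Genes are compared with each other only as CPM per kb of the longest annotated transcript. The pair of SEC libraries differed more within itself than the REC pair, since the chi-square between their counts, divided by its degrees of freedom, was 70.8 against 5.39. All 5 markers of the abscission zone were read, with a summed level of 1060 and 1190 CPM on the REC side and 866 and 1360 CPM on the SEC side. QRT2, whose promoter drives the sorting reporter, held 492.1 and 567.5 CPM of this in RECs and 458.6 and 693.7 CPM in SECs. Its presence follows from the sort. HAE had both REC libraries above both SEC libraries (439.2 and 459 against 159.9 and 354.6 CPM). It did not pass the test (log2 fold change 0.80, SE 0.383, edgeR adjusted p = 0.283). IDA (0.4706 and 0.8666 against 32.47 and 13.92 CPM) and ADPG2 (22.75 and 21.86 against 146.5 and 170.8 CPM) lay the other way, and HSL2 overlapped. Both nectary markers, CRC and SWEET9, had 0 counts in all 4 libraries, as had 1 of 3 genes in each of the guard cell (FAMA), xylem (XCP2), phloem (APL) and tapetum (MS1) lists. The phloem list summed to 9.26 and 9.33 CPM in the REC libraries but to 3.32 and 0.641 CPM in the SEC libraries, nearly all of it from SUC2. KAT1 of the guard cell list had REC counts of 10 and 40 and SEC counts of 0 and 0, while the list as a whole summed to 1.02 and 3.2 against 1.77 and 0.513 CPM. The xylem list (1.25 and 0.933 against 0.54 and 1.99 CPM) and the tapetum list (1.41 and 0.133 against 0.308 and 2.89 CPM) overlapped between the sides. The 6 markers of the epidermis, the cell layer that makes cuticle, summed to 122 and 129 CPM in RECs and to 94.6 and 158 CPM in SECs. These sums overlapped, and most came from FDH, at 100.6 and 107.3 against 57.07 and 96 CPM. FDH and PDF1 (1.726 and 2.8 against 0 and 1.475 CPM) had both REC libraries above both SEC libraries. PDF2 lay the other way (9.883 and 7.866 against 30.15 and 31.49 CPM), and ATML1, HDG2 and ANL2 overlapped. The 3 mesophyll markers summed to 2420 and 1850 CPM on the REC side and 1960 and 1390 CPM on the SEC side, most of it from RBCS1A. The other 2, CAB3 and LHCB2.1, had both REC libraries above both SEC libraries, CAB3 at 372 and 205 against 35.3 and 31.5 CPM and LHCB2.1 at 367 and 304 against 85.8 and 145 CPM. Of the markers, edgeR called IDA, ADPG2 (abscission zone) and PDF2 (epidermis) higher in SECs and CAB3 (mesophyll) higher in RECs. Their part in the members' values was not tested. In sorted bulk samples, fewer cells of a type and less RNA per cell cannot be told apart.

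The 9 genes ran from rank 15 among all genes tested to no read at all. Per kb of transcript, the order over the 4 libraries was AT1G29670, AT1G29660, AT3G16370, AT4G28780, AT5G45670, LTL1, CUS2, AT1G33811 and AT2G23540. AT1G29670 stood at 1730 ± 19.9 CPM per kb in RECs and 858 ± 120 in SECs, and ranked 15 of 18367 genes with a transcript length. AT1G29660 followed at 204 ± 8.99 and 61.4 ± 4.79 CPM per kb, rank 931. AT3G16370 and AT4G28780 were close neighbours by level, at ranks 3822 and 3975. They had 57.7 ± 0.0833 and 53.2 ± 0.057 CPM per kb in RECs, and 13.3 ± 0.987 and 14.6 ± 0.196 in SECs. Their order therefore turned between the sides, while AT1G29670 was first in all 4 libraries, also with all exons joined or coding length as the divisor (1160 and 1334 CPM per kb over all libraries, against 1294). AT5G45670 was far lower, at 4.16 ± 0.71 CPM per kb in RECs and 0.583 ± 0.825 in SECs, rank 14496. The last 4 genes did not differ beyond their spread.

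**Figure D2:**
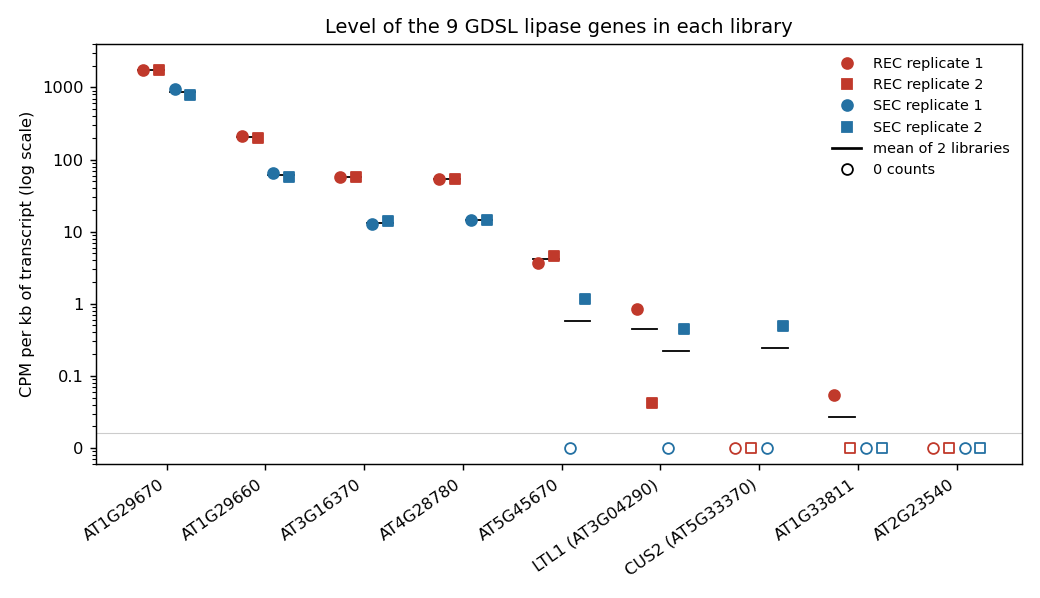
Level of each of the 9 genes in each library, in CPM per kb of transcript on a log scale, with bars at the mean of the 2 libraries of a group and open symbols for 0 counts. The 4 most abundant genes have both REC libraries above both SEC libraries, from AT1G29670 at 1730 against 858 down to AT4G28780 at 53.2 against 14.6, and the last 4 are at or near 0.

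AT1G29670 and AT1G29660 are the tandem pair, and RefSeq describes both only as GDSL-like lipases. In RECs AT1G29670 stood at 2330 and 2293 CPM, and in SECs at 1260 and 1033 CPM. Both REC libraries were above both SEC libraries, by a fold of 2.02 (log2 fold change 1.01, SE 0.157). In RECs AT1G29660 stood at 370 and 348 CPM, and in SECs at 114 and 102 CPM. Its groups also stood apart, and the fold was larger, at 3.33 (log2 fold change 1.74, SE 0.181). The ratio of the neighbours inside a library does not depend on library scaling. Counts of AT1G29660 were 15.9% and 15.2% of those of AT1G29670 in RECs and 9.02% and 9.85% in SECs.

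AT4G28780, close in sequence to LTL1 and CUS2, stood at 106 CPM in both REC libraries and at 29.2 and 28.6 CPM in the SEC pair. The REC libraries were alike and each about as far above the SEC libraries, a fold of 3.66 (log2 fold change 1.87, SE 0.206). AT3G16370, at most 61.1% identical to any other member, stood at 110 CPM in both REC libraries and at 24.1 and 26.8 CPM in the SEC pair. That is a fold of 4.32 (log2 fold change 2.11, SE 0.212), the largest of the 4 abundant members. Against AT1G29670 in the same library, AT3G16370 had 4.73% and 4.8% of its counts in RECs and 1.92% and 2.6% in SECs. AT4G28780 had 4.53% and 4.61% in RECs and 2.31% and 2.77% in SECs. All 3 ratios to AT1G29670 were thus higher in both REC libraries than in either SEC library. AT3G16370 overlaps a gene on the opposite strand, AT3G16380, over 538 bases, and that gene had 0 to 6 counts per library. AT1G29670 overlaps AT1G29680 on the opposite strand over 82 bases, where the partner's REC counts were 424 and 548 and its SEC counts 205 and 222; without strand, reads there cannot be assigned.

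AT5G45670, a relative of the tandem pair, was read at low depth. Its REC counts were 82 and 123 and its SEC counts 0 and 32, or 6.43 and 8.2 CPM against 0 and 2.05. The groups did not overlap, but the SEC libraries disagreed, and the fitted log2 fold change of 2.79 had an SE of 1.35. Leaving out SEC replicate 1, the library with no read, gave 1.83, and leaving out SEC replicate 2 gave 9.64 against a library at 0, which is no bound.

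The named relatives of cutin synthase had few or no counts on both sides. For LTL1 the REC counts were 17 and 1 and the SEC counts 0 and 11, so each group held a library at or under the limit and the groups overlapped. CUS2 had 12 counts in SEC replicate 2 and 0 in the other 3 libraries. AT1G33811 had 1 count in REC replicate 1 and 0 elsewhere, and AT2G23540 had 0 counts in all 4. No fold is given for these 4 genes, which did not have enough counts to be tested. For AT2G23540 the data allow up to 0.235 CPM in the shallowest library.

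The fit covered 5 of the 9 members. Of these, 4 passed an adjusted p of 0.05 by edgeR's quasi-likelihood test and were higher in RECs, where 0.495% of all 18384 genes tested were called in that direction. All 5 had both REC libraries above both SEC libraries, as had 29.8% of all genes tested. The members were chosen with this contrast in view, and only those past a filter on low counts were fitted, so nothing is read from these shares. Among the 11 alternative settings, the log2 fold change ran from 0.89 to 1.16 for AT1G29670, from 1.67 to 1.83 for AT1G29660, from 1.79 to 1.96 for AT4G28780 and from 2.04 to 2.21 for AT3G16370. With REC replicate 1 left out, the values were 1.03 for AT1G29670, 1.72 for AT1G29660, 1.90 for AT4G28780 and 2.14 for AT3G16370. With REC replicate 2 left out, they were 1.03, 1.79, 1.88 and 2.12 in the same order. Each of these fits has 1 REC library and no measure of spread among RECs. Passing the threshold is therefore not reported for the members there, and these values do not show whether they passed. Adjusted p values from such fits, given below for other genes, carry the same limit.

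**Figure D3:**
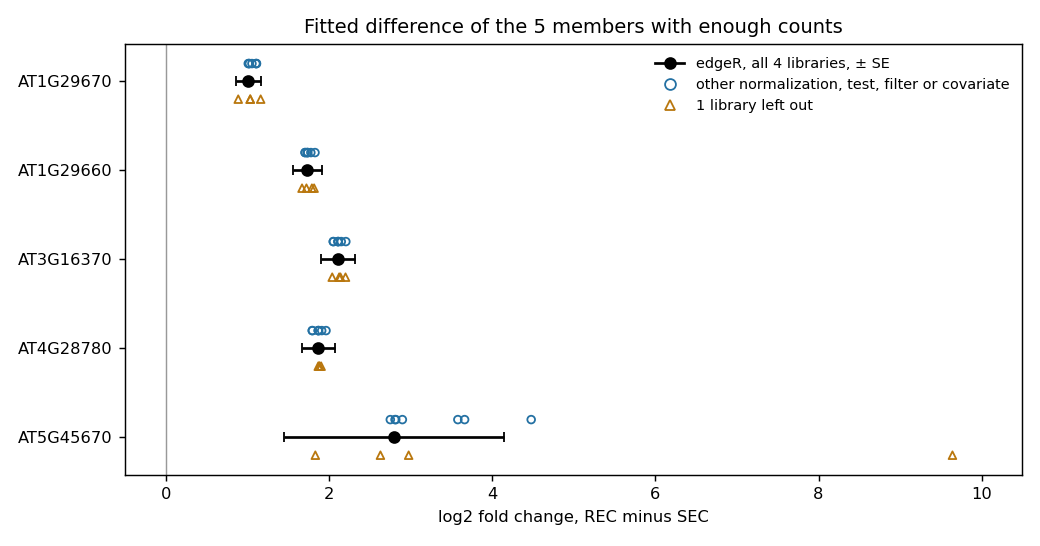
Fitted log2 fold change, REC minus SEC, of the 5 members with enough counts, with the SE of the fit to all 4 libraries and the values under 11 alternative settings. The 4 abundant members stay between 0.89 and 2.21, while AT5G45670 runs from 1.83 to 9.64 as SEC libraries are left out.

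The 9 members held most of the GDSL reads. They made up 78.9% ± 0.623 of the counts on all 100 GDSL genes in RECs and 62.1% ± 1.05 in SECs (n = 2). AT1G29670 by itself made up 63% ± 0.305 and 54.3% ± 1.7. All GDSL genes together were 0.384% ± 0.00242 of the counts in genes in RECs and 0.201% ± 0.0183 in SECs. That total includes the 9 members, which were chosen with this contrast in view. Nothing about the family as a whole is therefore read from the difference between the sides.

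Among the other GDSL genes, 1 passed the test, on the SEC side. The reference describes 91 further genes in the files as GDSL, of which 3 are Pmr5 relatives; 40 had enough counts to be tested and 29 had no read at all. By edgeR's quasi-likelihood test 0 of the 40 passed on the REC side and 1 on the SEC side, against 0.495% and 2.18% of all genes tested. At an unadjusted p under 0.05 there were 3 and 8, against 9.46% and 14.1% of all genes tested. DESeq2 called 1 and 4, against 4.15% and 8.56%, and limma voom 0 and 0, against 0.495% and 1.75%. Their median log2 fold change was 0.08, beside 0.02 over all genes tested, and 21 had a positive and 19 a negative value. The gene called was GLIP3 (AT1G53990), whose REC counts were 0 and 3 and whose SEC counts were 120 and 123. The ratio of its summed counts, 243 against 3, was 78.7 in favour of SECs after scaling by library size (adjusted p = 0.0432 by edgeR). The exact 95% interval of that ratio, 26.6 to 384, covers counting error only. It leaves out the spread between libraries and takes amplified reads as independent, so it is too narrow. By upper-quartile scaling GLIP3 did not pass (adjusted p = 0.0505), nor by limma voom (0.0841) or without REC replicate 1 (0.0568), in a range over the 11 alternatives of 1.13e-06 to 0.0841. Its log2 fold change was −6.22 with all 4 libraries, −6.14 and −6.48 under those other methods and −5.33 without REC replicate 1. Without REC replicate 2 it was −9.88, against a REC library at 0, which is no bound.

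The 3 other GDSL genes with the highest CPM did not pass the test. For AT5G45950 the REC levels were 196 and 205 CPM and the SEC levels 171 and 102 CPM (log2 fold change 0.56 ± 0.286 SE, edgeR adjusted p = 0.313). AT5G03820 stood at 153 and 163 CPM on the REC side against 138 and 161 CPM. AT1G28580 stood at 152 and 154 CPM against 113 and 165 CPM. The sides overlapped for both of these genes, with log2 fold changes of 0.09 and 0.14 (adjusted p = 0.83 and 0.774 by edgeR). AT5G03610, named after its values were seen, lay the other way, with REC levels of 10.7 and 9.13 CPM and SEC levels of 139 and 44.4 CPM. It did not pass the test (log2 fold change −3.21 ± 0.589 SE, edgeR adjusted p = 0.0582).

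**Figure D4:**
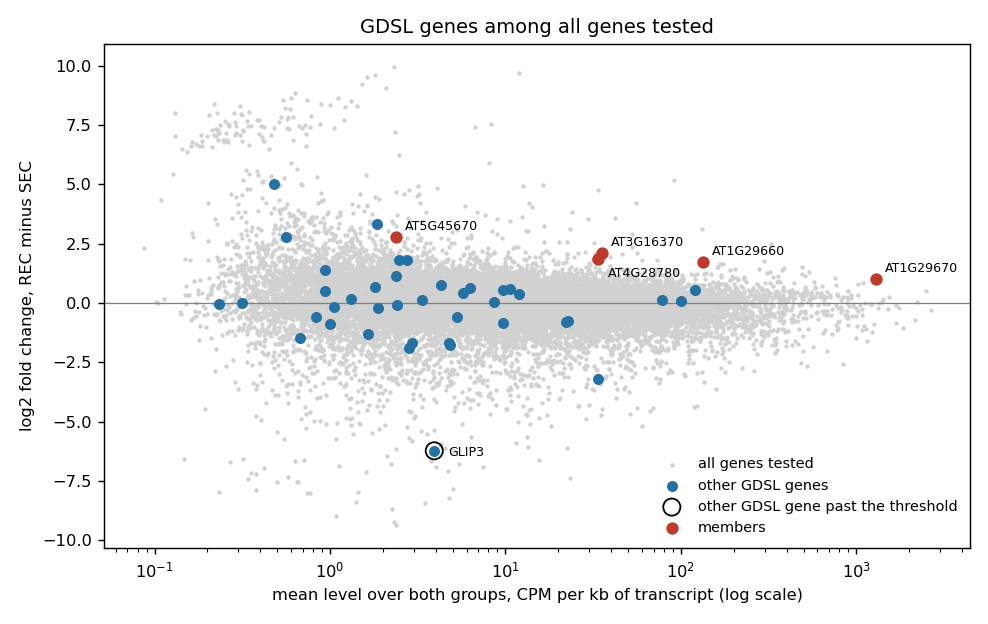
Log2 fold change, REC minus SEC, against mean level in CPM per kb of transcript on a log scale, for all genes tested (grey), the 40 other GDSL genes (blue) and the 5 members tested (red). The 4 abundant members lie at 1.01 to 2.11, and GLIP3, ringed, at −6.22 is the only other GDSL gene past the threshold.

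Cutin synthase takes its substrate from enzymes inside the cell, and 24 genes of cutin synthesis, export, assembly and regulation were read beside the members. Of the 18 tested, edgeR's quasi-likelihood test called 1 on the REC side and 0 on the SEC side, and 17 did not pass; of all genes tested, 0.495% and 2.18% were called. At an unadjusted p under 0.05 there were 8 and 0, against 9.46% and 14.1% of all genes. By DESeq2 there were 5 and 0, against 4.15% and 8.56%, and by limma voom 1 and 0, against 0.495% and 1.75%. The median log2 fold change was 0.53, with 15 positive values and 3 negative, beside 0.02 over all genes tested. The list was drawn up with earlier results of these data known, so these shares and the median are a description only. The gene called was CYP86A4, a fatty acid hydroxylase of cutin monomer synthesis, at 40.2 and 36.7 CPM on the REC side and 3.55 and 3.01 CPM on the SEC side (log2 fold change 3.55 ± 0.282 SE, edgeR adjusted p = 0.0267). Its adjusted p ran from 1.96e-16 to 0.0298 over the alternatives. GPAT6, the acyltransferase that makes the glycerol carrier in flowers, had REC levels of 1074 and 1209 CPM and SEC levels of 1366 and 1603 CPM. It did not pass (log2 fold change −0.38 ± 0.16 SE, edgeR adjusted p = 0.235). LTPG1, a lipid transfer protein anchored to the plasma membrane, had REC levels of 1031 and 966 CPM and SEC levels of 599 and 361 CPM (log2 fold change 1.06 ± 0.269 SE, edgeR adjusted p = 0.096). BDG1, a surface hydrolase needed for an intact cuticle, had REC levels of 20.2 and 23.7 CPM and SEC levels of 7.25 and 7.12 CPM (log2 fold change 1.61 ± 0.28 SE, edgeR adjusted p = 0.0544). The cutin regulators SHN2 and MYB16 had 0 counts in all libraries, and SHN1 and SHN3 had 4 counts each over the 4 libraries.

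Suberin is the related polyester of barrier tissues. Of 11 genes, 9 were tested, and edgeR called 0 on the REC side and 1, GPAT5, on the SEC side, against 0.495% and 2.18% of all genes tested. An unadjusted p under 0.05 was reached by 1 and 3, against 9.46% and 14.1%. DESeq2 called 0 and 3, against 4.15% and 8.56%, and limma voom 0 and 1, against 0.495% and 1.75%. GPAT5, the acyltransferase of suberin monomers, stood at 0.314 and 0.667 CPM on the REC side and 26.3 and 23.7 CPM on the SEC side (log2 fold change −5.62 ± 0.456 SE, edgeR adjusted p = 0.0267, and 1.04e-17 to 0.046 over the alternatives). Without REC replicate 2 its log2 fold change was −6.26. The median over the list was −0.26. This list too was drawn up with earlier results of these data known.

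**Figure D5:**
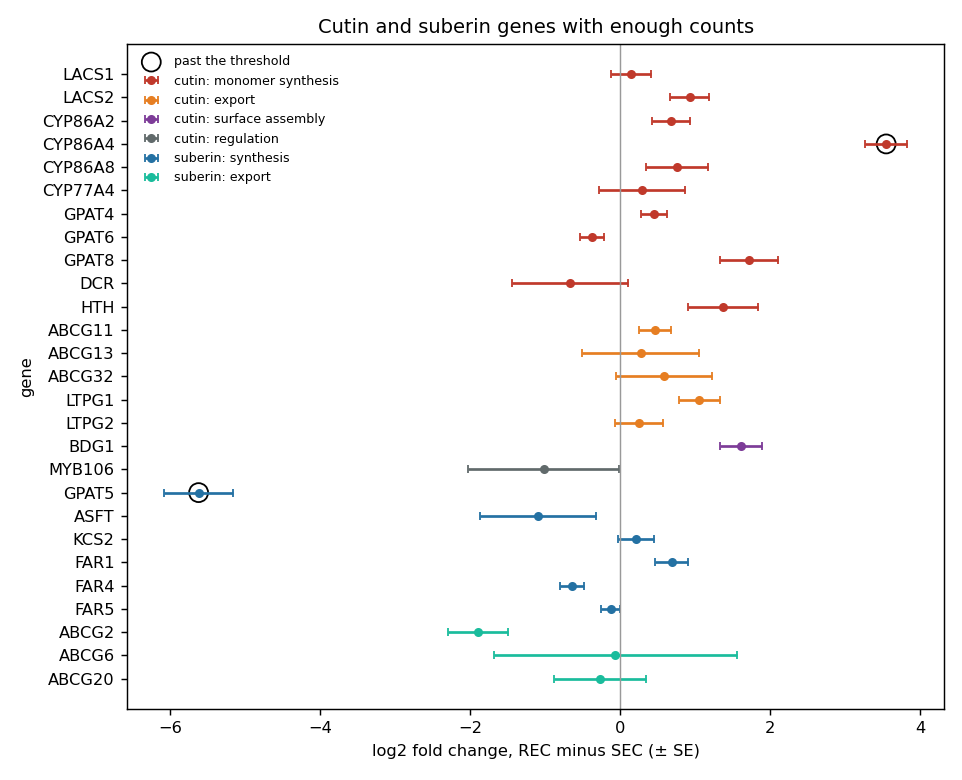
Log2 fold change, REC minus SEC, with its SE, of the 18 cutin genes and 9 suberin genes tested, coloured by role. CYP86A4 at 3.55 and GPAT5 at −5.62 are ringed as past the threshold, and 15 of the 18 cutin genes have positive values.

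For likeness, each gene's log2(CPM + 1) was centred over the 4 libraries and compared with the mean profile of the 5 tested members by Euclidean distance, among 11577 other genes averaging at least 10 CPM. The nearest was AT3G49220, of the family of pectin methylesterases and their inhibitors, at a distance of 0.052, whose REC levels were 97.8 and 98.3 CPM and SEC levels 26.5 and 31.1 CPM. AT1G49750, for a leucine-rich repeat protein, followed at 0.12. CER4, the reductase that makes primary alcohols of wax, was next at 0.124, whose REC levels were 494 and 495 CPM and SEC levels 138 and 174 CPM. TBL45, of the family that acetylates wall polymers, and FIB2, a fibrillarin of the nucleolus, stood at 0.13 and 0.132. With 4 libraries in 2 groups, such a profile holds little more than the difference between the groups. Within the SEC pair the mean profile was lower in replicate 1 (−1.018) than in replicate 2 (−0.761). AT5G45670, with 0 counts in SEC replicate 1, weighed most in that order (−1.926 and −0.316). AT3G16370 had the same order, and AT1G29660, AT1G29670 and AT4G28780 had the opposite one. The ranking of the nearest genes therefore leans on a member read at low depth.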

How the data were processed

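PolyA RNA-seq of sorted protoplasts was counted in 4 libraries, 2 REC and 2 SEC, grouped and numbered by the sample titles. Per the labels' protocols, cDNA was amplified over 18 cycles with a low-input kit and libraries were made with a kit that does not mark strand. The authors deposited whole-number counts for each gene, unscaled. Per the submitters' processing notes, HTSeq 0.6.1 and TopHat2 2.0.9 were used with build TAIR10, and Trimmomatic 0.32.3 and Picard 1.119 are also named. Strand setting and annotation: not given in the sources used here. In each file, 5 summary lines stayed out: reads in no gene were 46.81% to 47.74% of all records and reads with several alignments 5.64% to 7.48%. Amplified reads without molecular identifiers are not independent molecules.

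REC minus SEC was tested with edgeR 4.0.16 (glmQLFit and glmQLFTest, group as the only term, TMM, filterByExpr) in R 4.3.3, two-sided, with Benjamini-Hochberg adjustment over 18384 genes and a threshold of 0.05. The steps were checked on counts simulated with the same spread in every library. That check does not cover the wider spread of the SEC pair. Each SE was taken as the absolute log2 fold change over the root of the F statistic. Alternatives were upper-quartile normalization, DESeq2 1.42.0, limma 3.58.1 (voom), no filter, each library left out, a replicate block, a lowess trend on transcript length removed, and both together.

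Descriptions, transcript lengths and sequences came from RefSeq TAIR10.1, matched by locus for 32835 genes. The count files hold no coordinates, so those printed are of that build only. Coding sequences were aligned end to end with Biopython 1.88. The members and lists were chosen with earlier results of these data known. By rule, the text names all 9 members, other GDSL genes called or among the 3 highest in CPM, called cutin and suberin genes, and the 5 genes nearest in profile; LTPG1, BDG1, GPAT6, AT5G03610 and genes with 0 counts were added after their values were seen.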

Additional observations from a re-analysis of the deposited data

How the results depend on the processing

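The log2 fold changes of AT3G16370, AT1G29660, AT1G29670, AT4G28780 and AT5G45670 were positive under all 11 alternatives, and their median stayed between 1.79 and 1.96, against 1.87. All alternatives reuse the same libraries, and in all 5 members both REC libraries lay above both SEC libraries. The positive sign was therefore largely fixed in advance, and nothing is read from it. Counts of genes past the threshold moved far more. Over all genes, 91 were higher in RECs and 400 in SECs. DESeq2 gave 763 and 1574, no filter 280 and 836, and the length trend removed 874 and 1729; upper-quartile normalization gave 254 for SECs. RECs took 18.5% of the calls as tested, 32.6% with DESeq2 and 33.6% with the length trend removed. The median log2 fold change of all genes moved from 0.02 to 0.12 with upper-quartile normalization, and the members moved with it. Among the other GDSL genes, 0 and 1 were called, 1 and 4 with DESeq2, 1 and 5 with the length trend removed, 2 for SECs with no filter, and 0 for SECs with upper-quartile normalization or limma voom. For cutin, 1 and 0 became 5 for RECs with DESeq2, 3 with no filter, and 5 and 1 with the length trend removed. For suberin, 0 and 1 became 3 for SECs with DESeq2, 2 with no filter, and 1 and 3 with the length trend removed. Calls over all genes moved in the same settings, so nothing about a list is read from these counts. The cause of these shifts was not tested.

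With 1 library left out, calls ran from 28 to 5630 for RECs and from 86 to 4991 for SECs over all genes, from 0 to 17 and 0 to 13 for the other GDSL genes, from 1 to 12 and 0 to 1 for cutin, and from 0 to 2 and 1 to 4 for suberin. The low ends come without a REC library, where the SEC pair sets the spread, and the high ends without a SEC library, where the REC pair does.

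The numbers in the titles are shared by both groups, but nothing says that they pair the samples, and deviations of same-numbered libraries had a correlation of 0.0535 across genes. With the replicate block 5 members passed the threshold, against 4, the addition being AT5G45670, whose SEC counts were 0 and 32. Of all 18384 genes tested, 526 and 1161 were then called, against 91 and 400 without the block. The members were chosen with this contrast in view, so nothing is read from their calls. There were 1 and 3 calls among the other GDSL genes, 3 for RECs in cutin, and 1 and 2 in suberin. With the replicate block and the length trend removed the counts were 755 and 1618, 1 and 2, 3 and 1, and 1 and 3. AT1G33811 and AT2G23540 had at most 1 count in a library, too few to compare the sides, and the reason was not tested. For LTL1 and CUS2 the libraries of a group disagreed, with up to 17 and 12 counts in 1 and at most 1 in the other library of that group.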
